A study of Mus musculus with 2 samples.

Results

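The genes described here encode the voltage-gated sodium and calcium channels, the hyperpolarization-activated HCN channels, the potassium channels and the accessory subunits of these proteins. The rule that picks members uses gene symbols and no measured value, though it was written with earlier results of these data known. The symbols gave 136 of the 55348 gene entries in the deposited count tables, all of them protein-coding and spread over 20 chromosomes. The samples were 2 RNA-seq libraries from mouse hearts at E13.5, a mid-gestation stage at which the heart already beats with formed chambers. One was made from wild-type hearts and the other from hearts homozygous for the Lmna H222P allele, a missense mutation in the gene of lamins A and C. Both came from strain 129sv and were labelled as total RNA, and the labels give neither the number nor the sex of the hearts behind a library. With 1 library per genotype there is no replicate, no test of the genotypes and no p-value. All differences lie between these 2 libraries, and the 95% intervals cover counting error only.

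Ion channels set the electrical rhythm of the heart. In a working cardiomyocyte sodium channels start the action potential, the L-type calcium channel sustains its plateau and triggers contraction, and several potassium channels return the membrane to rest. Inward rectifier potassium channels then hold the resting potential. Pacemaker cells carry little of that resting potassium current and drift towards threshold through HCN channels and T-type calcium channels. Many other members of these families serve neurons, glia, smooth muscle, blood cells or secretory epithelia.

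The wild-type library held 32669225 gene-assigned reads, against 25120790 for H222P. Levels are given as CPM, counts scaled to a common library size after TMM correction, and ratios as the H222P library over the wild-type library on the log2 scale or as a fold. Defining cardiomyocyte genes were abundant in both libraries, with Myh7 at 6896 CPM in wild type and 3276 CPM in H222P, and all 8 markers of the list were detected in each. Their median log2 ratio was −0.86, with a range of −1.27 (Tnnt2) to −0.17 (Myh6). The H222P library also held transcripts of other tissues. Its 9 liver markers summed to 5471 CPM against 10.2 CPM in wild type, and its 7 red cell precursor markers to 1339 CPM against 199.6 CPM. The part of these cells in the ratios below was not tested. In bulk tissue, fewer cells of a type and less RNA per cell cannot be told apart.

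Of the 136 channel genes, 79 reached 1 CPM in the mean of both libraries and are called measured. In the H222P library 25 of them were lower by 1.5-fold or more, 17 were higher by as much and 37 lay between. Among all 14716 measured genes, 11.4% were lower and 10.9% higher by that bound, and among the 13231 protein-coding ones 10.9% and 10.5%. A gene can pass the filter through the library in which it is high, so the counts describe the measured genes and not the whole family. The median log2 ratio of the measured channel genes was −0.11, against −0.01 over all measured genes. At the larger bound of 2-fold, 8 channel genes were lower and 8 higher, where the background was 4.35% lower and 5.95% higher over all genes, and 4.03% and 6.03% over protein-coding genes.

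Direction differed between abundant and scarce channel genes, as it did among all measured genes. Of the 18 at a mean of 20 CPM or more, 9 were lower and 1 was higher, while 7.91% of all genes that abundant were lower and 4.43% higher. Of the 26 between 5 and 20 CPM, 8 were lower and 4 higher, beside 12.4% lower and 13.3% higher among all genes there. Of the 35 channel genes between 1 and 5 CPM, 8 were lower and 12 higher, beside 19.95% lower and 25.7% higher among all genes in that range. For 14 of the lower and 8 of the higher channel genes the whole counting interval lay beyond 1.5-fold, a count not made over all genes. The interval held a ratio of 1 for 23 of the 79 measured channel genes, lay wholly below it for 36 and wholly above for 20. Over all 14716 measured genes, 5026 intervals lay wholly below a ratio of 1 and 4646 wholly above. Of the 17 higher channel genes, 8 had under 1 CPM in wild type.

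**Figure D1:**
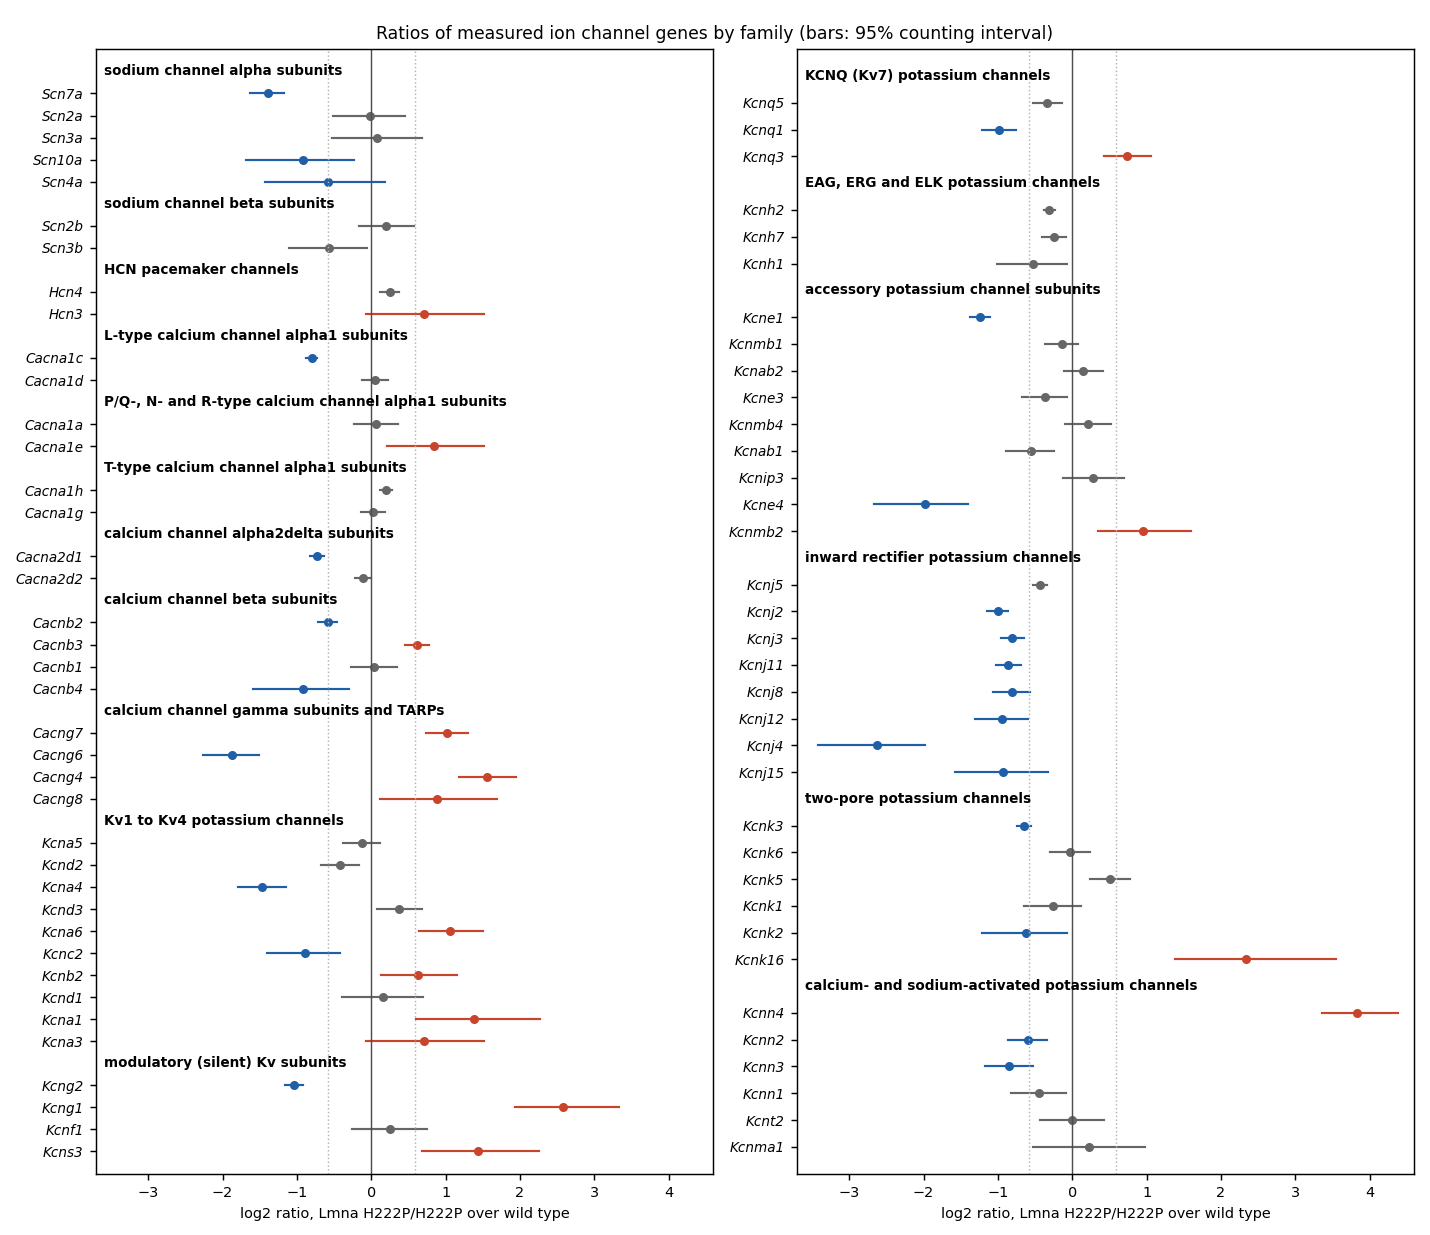
Log2 ratio (Lmna H222P/H222P over wild type, x axis) of 74 measured channel genes, grouped by family and ordered by mean CPM. Points are single-library ratios, bars are 95% counting intervals, dotted lines mark 1.5-fold, and blue and red mark genes at least 1.5-fold lower and higher. 7 of 8 inward rectifiers are blue, while Kcnn4 has the highest ratio at 3.83.

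Of the 6 measured sodium channel alpha subunits, 3 were lower by 1.5-fold or more and 0 higher, beside 11.4% and 10.9% of all measured genes. Scn10a and Scn4a, among the 3, lay between 1 and 5 CPM, where 19.95% of all genes were lower. Scn7a, an atypical sodium channel of glia and other non-neuronal cells, had 21.3 CPM in wild type and 8.08 CPM in H222P. It had the lowest ratio of these genes, 2.63-fold lower (2.25 to 3.09). Scn10a, a sodium channel known from sensory neurons, was scarcer, at 1.81 and 0.944 CPM, a log2 ratio of −0.92 (−1.68 to −0.23).

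The neuronal channels Scn2a (2.61 and 2.57 CPM) and Scn3a (1.65 and 1.74 CPM) were low and near equal in the libraries. Scn4a, the skeletal muscle channel, lay at the bound with 1.26 and 0.831 CPM, and its interval (−1.42 to 0.19) held 0. Scn1a, Scn8a, Scn9a and Scn11a did not reach a mean of 1 CPM. Of the accessory beta subunits, which tune gating and surface expression, Scn2b (4.13 and 4.76 CPM) and Scn3b (2.81 and 1.89 CPM) lay within 1.5-fold. Scn4b had 9 and 25 reads and was not measured.

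Hcn4, the main pacemaker channel of the heart (chromosome 9, 58823412 to 58863175, GRCm38), had more signal in the H222P library, at 30.9 CPM in wild type and 36.7 CPM in H222P. Its log2 ratio was 0.25 (0.12 to 0.38). It made up 89.7% of the summed HCN level per kb of exon in wild type and 90.8% in H222P. Hcn2 had 23 and 6 reads and was not measured. Hcn3 passed the bound with 25 and 35 reads, but its log2 interval (−0.07 to 1.51) held 0. Sinus node factors split in direction. Tbx3 and Isl1 were higher in the H222P library, 1.99-fold (1.77 to 2.25) and 4.78-fold (3.996 to 5.77), and Shox2 had a log2 ratio of 0.30 (0.12 to 0.47), while Tbx18 had 73.9 and 55.2 CPM and a log2 ratio of −0.42 (−0.52 to −0.33). These factors are expressed outside the heart too. Lung and gut mesenchyme markers were higher by 1.5-fold or more in 4 of 7 cases and lower in 2, and summed to 107 CPM in wild type and 189 CPM in H222P. Lung and gut epithelium markers were higher in 3 of 6 and lower in 1, and summed to 111 and 149 CPM. The part of such cells was not tested.

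The L-type calcium channel of the myocardium had lower values for its pore and its cardiac partners. Cacna1c, the pore-forming subunit (chromosome 6, 118587240 to 119196418), had 134 CPM in wild type and 76.7 CPM in H222P, 1.75-fold lower (1.66 to 1.84). Cacna2d1, the alpha2delta subunit that carries the channel to the membrane, went from 91.5 to 55.0 CPM between the libraries, 1.66-fold lower (1.56 to 1.77). Its log2 ratio of −0.73 became −0.58 with total-count scaling, just inside the 1.5-fold bound. Cacnb2, the cardiac beta subunit, had 44.0 and 29.3 CPM, a log2 ratio of −0.59 (−0.72 to −0.46) that lay at the 1.5-fold bound and was −0.43 with total-count scaling.

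The other L-type pore of the heart, Cacna1d, which serves the sinus node and atria, had 18.5 and 19.0 CPM and a log2 ratio of 0.04 (−0.13 to 0.22). The T-type pores Cacna1h (81.9 and 93.5 CPM, ratio 0.19, 0.11 to 0.27) and Cacna1g (22.0 and 22.4 CPM, ratio 0.02, −0.14 to 0.18) were not lower either. T-type channels open near the resting potential and are prominent in fetal myocardium. Compared per kb of exon, Cacna1h made up 43.8% of the summed alpha1 level in wild type and 53.8% in H222P, while Cacna1c made up 33.0% and 20.3%. Exon length here merges all annotated exons, so a gene with rarely used exons has a level per kb that is too low.

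Among other calcium channel subunits, the beta subunit Cacnb3 had 18.1 CPM in wild type and 27.7 CPM in H222P, 1.53-fold higher (1.37 to 1.71), and was the only channel gene above 20 CPM in mean that passed the bound upwards. It stands against Cacnb2 in the same family, and Cacnb3 is known mainly from smooth muscle and neurons. Cacnb4, a brain subunit, was 1.89-fold lower (1.23 to 3.01) on 69 and 31 reads, and Cacnb1 (6.04 and 6.19 CPM) and Cacna2d2 (53.8 and 49.7 CPM) lay within the bound. The neuronal pores Cacna1a (6.62 and 6.91 CPM) and Cacna1e (1.13 and 2.04 CPM) were low, the second 1.80-fold higher (1.16 to 2.85).

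The gamma family, small membrane proteins that modulate calcium channels or, as TARPs, glutamate receptors, split in direction within 1 gene cluster. Cacng7, Cacng8 and Cacng6 follow each other on the plus strand of chromosome 7, with gaps of 22462 and 8547 bases between annotated genes. Cacng6, at 3424195 to 3435667, had 10.4 CPM in wild type and 2.83 CPM in H222P, a log2 ratio of −1.87 (−2.26 to −1.51). Cacng7, at 3332955 to 3368221, had 5.39 and 10.9 CPM, 2.02-fold higher (1.67 to 2.46), and Cacng8, between them, 0.775 and 1.43 CPM, 1.84-fold higher (1.08 to 3.23). Cacng6 has been described in muscle, and Cacng7 and Cacng8 are brain TARPs. Cacng4, another TARP, lies on chromosome 11 and was 2.94-fold higher (2.27 to 3.86) with 2.61 and 7.70 CPM.

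Inward rectifier potassium channels were the largest family whose measured members all had the same direction. All 8 measured members had ratios below 0, with a median of −0.89, and 7 of 8 were at least 1.5-fold lower, beside the background of 11.4%. The promoters of 3 of them are shown, Kcnj2 and Kcnj4 for the resting current and Kcnj3 for the acetylcholine-activated one, with that of Kcnn4, the member with the highest ratio, for contrast. Each sequence runs 5′ to 3′ on the strand of the gene, from 250 bases before to 50 bases after the RefSeq start (GRCm38.p6), which matches the GENCODE start for all 4 genes. They lie at chr11:111065914-111066213 on the plus strand (Kcnj2), chr2:55435720-55436019 on the plus strand (Kcnj3), chr15:79505192-79505491 on the minus strand (Kcnj4) and chr7:24370013-24370312 on the plus strand (Kcnn4). Capitals mark matches on either strand to the E-box CAGCTG and the GC box GGGCGG, which reads CCGCCC on the other strand.
Kcnj2: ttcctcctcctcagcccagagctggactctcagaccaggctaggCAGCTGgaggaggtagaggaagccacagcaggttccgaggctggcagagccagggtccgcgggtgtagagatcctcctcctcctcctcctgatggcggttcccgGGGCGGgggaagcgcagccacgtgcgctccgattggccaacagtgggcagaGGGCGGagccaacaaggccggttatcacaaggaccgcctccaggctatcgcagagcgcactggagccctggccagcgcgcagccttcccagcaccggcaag
Kcnj3: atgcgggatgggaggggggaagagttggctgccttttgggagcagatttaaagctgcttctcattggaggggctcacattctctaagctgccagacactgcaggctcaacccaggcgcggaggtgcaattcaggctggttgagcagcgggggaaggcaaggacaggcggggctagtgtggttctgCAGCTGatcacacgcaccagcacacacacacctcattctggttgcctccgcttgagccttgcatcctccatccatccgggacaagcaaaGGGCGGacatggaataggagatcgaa
Kcnj4: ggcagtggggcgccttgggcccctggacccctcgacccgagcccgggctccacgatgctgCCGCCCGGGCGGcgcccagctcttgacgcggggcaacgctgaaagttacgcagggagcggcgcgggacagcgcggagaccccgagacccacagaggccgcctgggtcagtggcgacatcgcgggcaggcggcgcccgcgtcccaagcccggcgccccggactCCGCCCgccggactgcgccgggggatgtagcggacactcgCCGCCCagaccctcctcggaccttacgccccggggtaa
Kcnn4: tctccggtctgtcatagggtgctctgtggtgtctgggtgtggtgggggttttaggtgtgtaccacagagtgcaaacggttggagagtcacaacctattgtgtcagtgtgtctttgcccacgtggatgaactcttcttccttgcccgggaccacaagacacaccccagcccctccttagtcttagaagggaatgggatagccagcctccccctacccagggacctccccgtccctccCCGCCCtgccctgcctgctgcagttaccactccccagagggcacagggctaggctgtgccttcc
The windows of Kcnj2 and Kcnj3 each held 1 match to CAGCTG and those of Kcnj4 and Kcnn4 held none. GGGCGG matched 2 times for Kcnj2, 1 time for Kcnj3, 4 times for Kcnj4 and 1 time for Kcnn4. Over all 32851 RefSeq windows, 16.3% held CAGCTG and 35.7% held GGGCGG. Over the 135 windows of channel genes the shares were 26.7% and 45.9%. None of the 4 held AGATAA (11.2% of all windows), TATAAA (13.6%) or the MEF2 site pattern (3.69%), searched on both strands as well. Over the channel gene windows these shares were 3.70%, 5.19% and 1.48%. The Kcnj4 window was the richest of the 4 in CpG, with 41 CG pairs against 18 for Kcnj2, 10 for Kcnj3 and 6 for Kcnn4. The median was 7 over all windows and 9 over those of channel genes.

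Kcnj2, whose channel carries the resting potassium current of ventricular muscle (chromosome 11, 111066164 to 111076821), had 42.7 CPM in wild type and 21.3 CPM in H222P, 2.01-fold lower (1.82 to 2.22). Kcnj12 and Kcnj4 encode its close relatives that contribute to the same current. Kcnj12 had 7.07 and 3.66 CPM, 1.92-fold lower (1.51 to 2.48). Kcnj4 went from 148 reads (4.78 CPM) to 20 reads (0.755 CPM), 6.19-fold lower (3.95 to 10.7), the lowest ratio of any measured channel gene.

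Kcnj3 and Kcnj5 form the acetylcholine-activated channel through which the vagus slows the atria and sinus node. Kcnj3 had 35.2 and 20.2 CPM, 1.75-fold lower (1.57 to 1.94), and Kcnj5 had 82.3 and 61.0 CPM, 1.35-fold lower (1.27 to 1.44). Kcnj5 was the most abundant inward rectifier and held 34.4% of the family level per kb in wild type and 43.0% in H222P.

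Kcnj11 and Kcnj8 form the pores of ATP-sensitive potassium channels, which couple membrane potential to metabolic state. Kcnj11 had 29.4 and 16.2 CPM, 1.82-fold lower (1.62 to 2.04), and Kcnj8, typical of smooth muscle and pericytes, 13.6 and 7.70 CPM, 1.76-fold lower (1.49 to 2.09). Their regulatory sulfonylurea receptors, which lie outside the symbol rule, had the same direction: Abcc8 was 2.53-fold lower (log2 −1.34, −1.66 to −1.03) and Abcc9 had a log2 ratio of −0.53 (−0.61 to −0.46). Kcnj15, an epithelial channel, was 1.90-fold lower (1.26 to 2.98) from 2.39 CPM. Of smooth muscle and pericyte markers, 2 of 6 were lower by 1.5-fold or more and 1 higher, with summed levels of 1281 and 916 CPM.

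**Figure D2:**
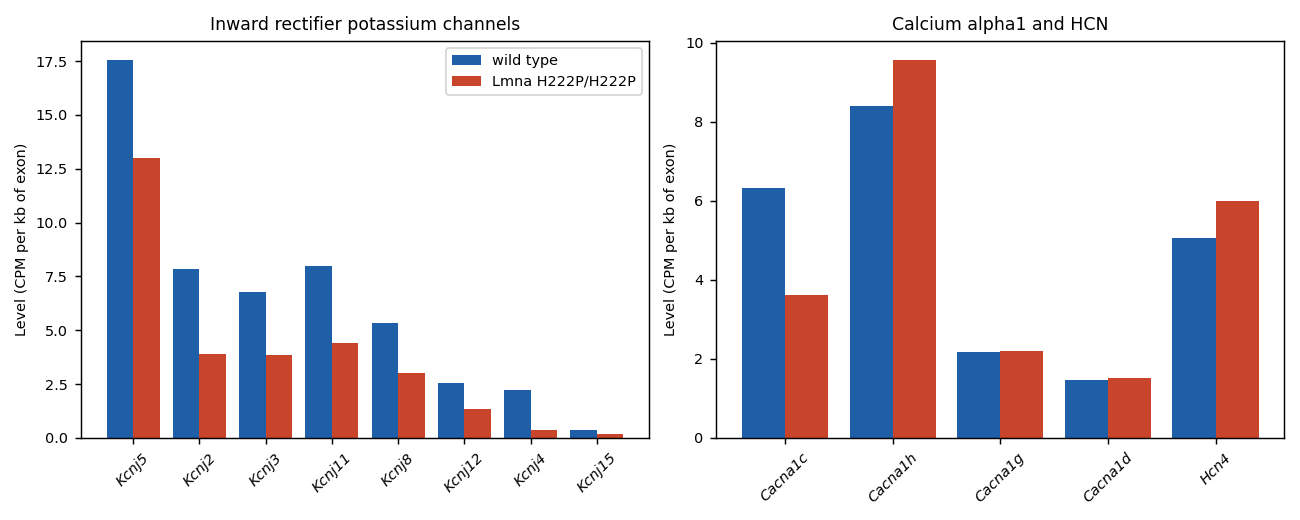
Level in CPM per kb of annotated exon (y axis, linear from 0) in the wild-type (blue) and Lmna H222P/H222P (red) library, 1 library each and so without error bars, for the 8 measured inward rectifiers (left) and for 5 inward-current channels (right). Each inward rectifier bar is shorter in H222P, while Cacna1h goes from 8.39 to 9.58 and Hcn4 from 5.05 to 5.99.

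Repolarizing channels of the ventricle differed among themselves. Kcnq1 (chromosome 7, 143106362 to 143427042) and Kcne1 form the slow delayed rectifier, pore and accessory subunit, and both were lower in the H222P library. Kcnq1 had 17.1 and 8.65 CPM, 1.98-fold lower (1.69 to 2.32), and Kcne1 had 53.5 and 22.7 CPM, 2.36-fold lower (2.15 to 2.59). Kcnh2, the rapid delayed rectifier (chromosome 5, 24319589 to 24351604), had 104.6 and 84.5 CPM, 1.24-fold lower (1.17 to 1.31), and stayed within the bound.

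Kcna4, of the slow transient outward current, had 10.97 CPM in wild type and 3.96 CPM in H222P, 2.76-fold lower (2.22 to 3.48). Its ratio was the lowest among the measured genes of the cardiac list. Kcnd2 and Kcnd3, of the fast transient outward current, were not as low. Kcnd2 had 10.8 and 8.12 CPM (log2 ratio −0.42, −0.67 to −0.17) and Kcnd3 had 5.58 and 7.25 CPM (0.38, 0.07 to 0.68). Kcnip2, their accessory subunit in adult ventricle, had 28 and 27 reads and was not measured. Kcna5, another Kv channel of the cardiac list, had 9.97 and 9.10 CPM, with a ratio of −0.13 (−0.38 to 0.12). Kcnd1 (1.97 and 2.19 CPM) had an interval that held 0.

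Among the modulatory Kv subunits, which are silent alone and alter partner channels, Kcng2 was abundant, at 63.7 CPM in wild type and 31.0 CPM in H222P, 2.05-fold lower (1.89 to 2.23). Kcng1 and Kcns3 had the opposite direction from low wild-type levels. Kcng1 had 22 and 114 reads, 5.95-fold higher (3.82 to 10.1), and Kcns3 had 21 and 49 reads, 2.69-fold higher (1.61 to 4.79). Kcnf1 had 2.23 and 2.64 CPM.

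Several scarce neuronal Kv channels were higher in the H222P library. Of all genes between 1 and 5 CPM, 25.7% were higher by 1.5-fold or more and 19.95% lower. Kcna6 had 2.32 CPM in wild type and 4.87 CPM in H222P, 2.09-fold higher (1.56 to 2.84), and Kcna1, next to it on chromosome 6 with a gap of 61945 bases, had 19 and 43 reads, 2.61-fold higher (1.51 to 4.81). Kcna1 had 0.613 CPM in wild type and passed the filter through the H222P library, at 1.62 CPM. Kcna5 is the next member in that cluster and, as given above, did not pass the bound. Kcnq3, an M-current channel of neurons, had 4.68 and 7.82 CPM, 1.67-fold higher (1.34 to 2.08). Its mean of 6.25 CPM lay between 5 and 20 CPM, where 13.3% of all genes were higher and 12.4% lower. Kcnb2 was 1.55-fold higher (1.09 to 2.22) from 1.87 CPM, and Kcna3, a channel of lymphocytes and neurons, had an interval that held 0 (−0.07 to 1.51). Kcnc2 was lower, 1.86-fold (1.34 to 2.64), and Kcnq5 (17.04 and 13.52 CPM), Kcnh7 (25.0 and 21.1 CPM) and Kcnh1 (3.45 and 2.38 CPM) lay within the bound.

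Of the 9 measured accessory potassium channel subunits, 2 were lower by 1.5-fold or more, 1 was higher and 6 lay between. Among all measured genes 11.4% were lower and 10.9% higher. Between 1 and 5 CPM, where Kcne4 and Kcnmb2 lay, the shares were 19.95% and 25.7%. The intervals of 4 of the 9 subunits lay wholly below 0 and that of 1 above. By that measure, 5026 of all 14716 measured genes lay below 0 and 4646 above. Besides Kcne1, the lower one was Kcne4, which inhibits some Kv channels, with 127 and 27 reads (4.10 and 1.02 CPM), 3.96-fold lower (2.64 to 6.34). Kcnmb2, a subunit of the large-conductance calcium-activated channel, was 1.94-fold higher (1.27 to 3.03) from 1.16 CPM. Kcnmb1, the smooth muscle subunit of that channel, had 12.1 and 10.99 CPM (ratio −0.14, −0.37 to 0.08), and the pore gene Kcnma1 had 32 reads in each library. Kcnab1 was 1.47-fold lower (1.18 to 1.85) and Kcne3 1.29-fold lower (1.05 to 1.60), both within the bound. Kcne3, Kcnab1, Kcnab2, Kcnmb4 and Kcnip3 had ratios between −0.56 (Kcnab1) and 0.28 (Kcnip3).

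K2P (tandem-pore) channels give background potassium leak. Kcnk3, the acid-sensitive leak channel of heart and pulmonary artery, had 76.2 CPM in wild type and 48.6 CPM in H222P, 1.57-fold lower (1.46 to 1.68), and its log2 ratio of −0.65 became −0.50 with total-count scaling. The stretch-sensitive Kcnk2 was 1.54-fold lower (1.05 to 2.31) from 2.45 CPM. Kcnk6 (8.33 and 8.16 CPM), Kcnk1 (4.49 and 3.74 CPM) and Kcnk5 (6.65 and 9.44 CPM) lay within the bound. Kcnk16, known from pancreatic islets, had 10 and 45 reads, 5.07-fold higher (2.62 to 11.7).

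Among calcium-activated potassium channels, Kcnn4 stood apart from every other member. Kcnn4 is the intermediate-conductance channel of red cells, where it is called the Gardos channel, and of some epithelia and immune cells. It had 36 reads (1.16 CPM) in wild type and 442 reads (16.7 CPM) in H222P, 14.2-fold higher (10.2 to 20.8). Red cell precursor markers were higher in the same library in 6 of 7 cases by at least 1.5-fold, with a median log2 ratio of 4.33 and Klf1 at 20 and 1657 reads; their part in the Kcnn4 ratio was not tested. The small-conductance channels had the opposite direction. Kcnn3 was 1.80-fold lower (1.45 to 2.25) from 8.29 CPM, Kcnn2, which contributes to atrial repolarization, 1.51-fold lower (1.26 to 1.82) from 10.7 CPM, and Kcnn1 had a log2 ratio of −0.45 (−0.83 to −0.08). The sodium-activated Kcnt2 had 3.26 and 3.25 CPM.

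**Figure D3:**
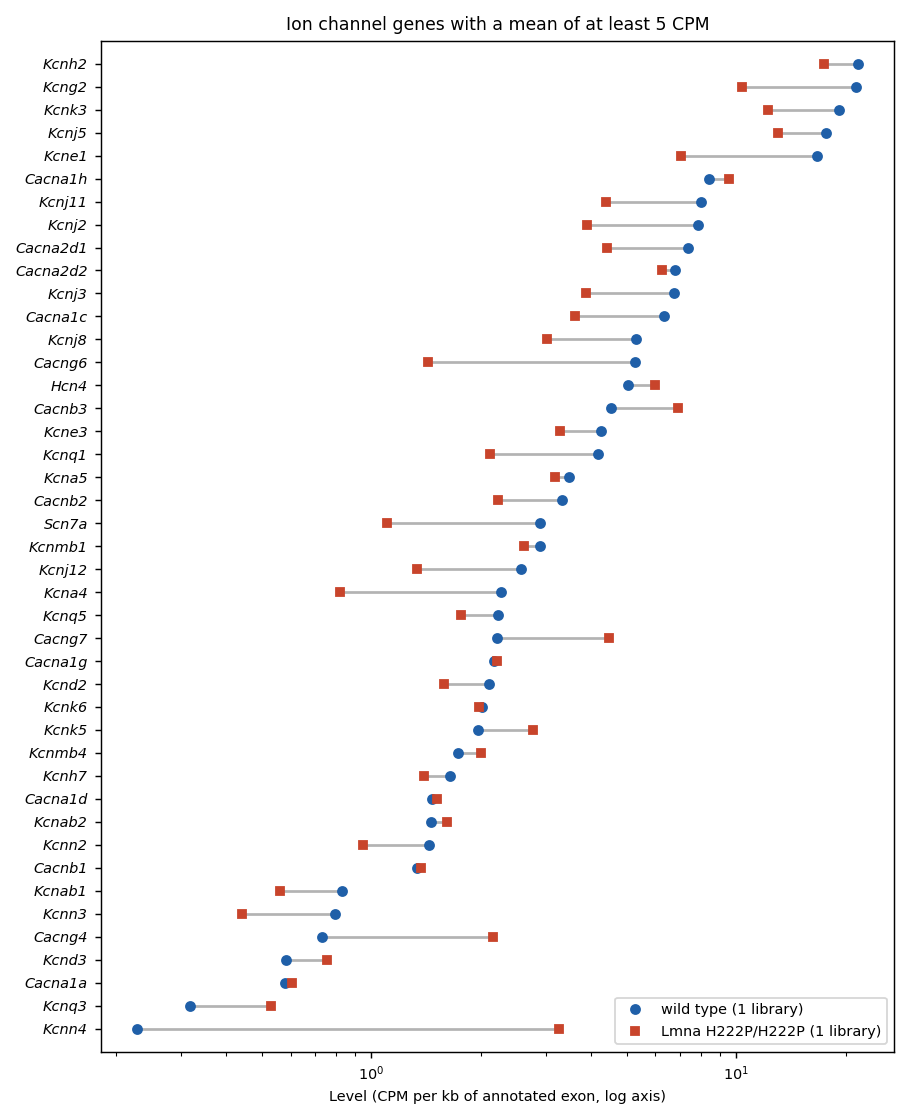
Level in CPM per kb of annotated exon (x axis, log scale) of 43 channel genes with a mean CPM of 5 or more, in the wild-type (blue circles) and Lmna H222P/H222P (red squares) library, ordered by the wild-type level. Kcnh2 is first in both libraries, and Kcnn4 goes from last at 0.227 to 3.26.

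Ordered by level per kb, the first 5 channel genes in wild type were Kcnh2 (21.6), Kcng2 (21.3), Kcnk3 (19.2), Kcnj5 (17.6) and Kcne1 (16.6). In the H222P library they were Kcnh2 (17.4), Kcnj5 (13.0), Kcnk3 (12.2), Kcng2 (10.4) and Cacna1h (9.58). All are genes of potassium channels except the T-type calcium channel pore Cacna1h, which was at place 6 in wild type. Hcn4 moved from place 16 to place 10, whereas Kcnj2 moved from 8 to 14 and Kcnj11 from 7 to 13. With 1 library per genotype, places of neighbouring genes are not shown to differ.

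The channels with a textbook role in the heart were read beside the cardiomyocyte markers. Of 27 genes in that list, 24 were measured, of which 12 were lower by 1.5-fold or more and 0 higher. Over all measured genes 11.4% were lower and 10.9% higher by that bound. The median log2 ratio of the 24 was −0.51. Set against the marker median of −0.86, 14 of the 24 lay within 1.5-fold of it, 9 lay at least 1.5-fold above it and 1, Kcna4, at least 1.5-fold below. Those above included Kcna5, Cacna1g, Cacna1d, Cacna1h, Hcn4 and Kcnd3. The same 9 had ratios above that of the highest single marker, Myh6 (−0.17). Some counting intervals held that value, such as that of Kcna5 (−0.38 to 0.12). The pacemaker-type channels Hcn4, Cacna1d, Cacna1g and Cacna1h thus had ratios above the range of the cardiomyocyte markers. So did other channels, among them Kcna5 and Kcnd3. Hcn2, also in the list but not measured, had 23 and 6 reads and a log2 ratio of −1.63 (−3.30 to −0.38). This grouping of pacemaker-type channels was made after their values were seen. Endothelium markers were lower too, 5 of 6 by 1.5-fold or more and all 6 with intervals below 0. Their median log2 ratio was −0.66 and their summed level 824 CPM in wild type and 528 CPM in H222P, and their part in the channel ratios was not tested.

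Of 32 channels with a textbook neuronal role, 14 were measured, 5 of them at least 1.5-fold higher and 2 lower, with a median log2 ratio of 0.23. Of the 14, 12 lay between 1 and 5 CPM, where 25.7% of all measured genes were higher and 19.95% lower. The higher ones were Cacna1e, Cacng8, Kcna1, Kcnb2 and Kcnq3, and the lower ones Scn10a and Kcnc2. Among those with a mean of 5 CPM or more, Kcnq3 was the 1 higher gene. Neuron markers summed to 20.98 CPM in wild type and 42.8 CPM in H222P, and 4 of the 7 measured were at least 1.5-fold higher, with the neuronal tubulin gene Tubb3 at 93 and 318 reads. Of the glia and neural crest markers, 2 of 5 were higher and 1 lower, with Sox10 at 25 and 224 reads. Their part in the channel ratios was not tested.

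**Figure D4:**
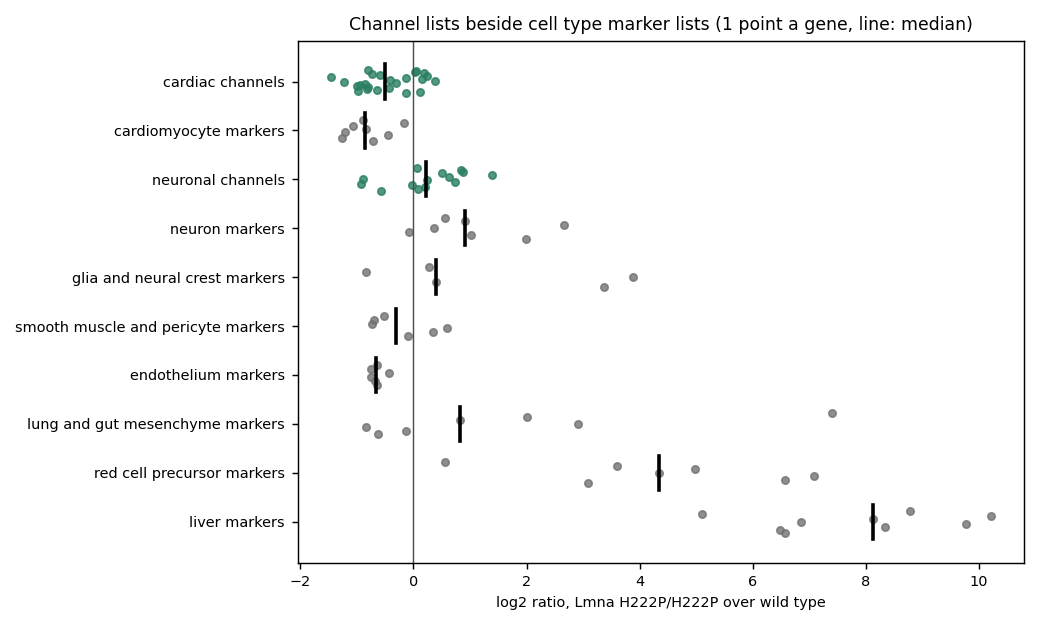
Log2 ratio (Lmna H222P/H222P over wild type, x axis) of each measured gene of the cardiac and neuronal channel lists (green) and of cell type marker lists (grey); black lines are list medians. Cardiac channels have a median of −0.51 beside −0.86 for cardiomyocyte markers, and neuronal channels 0.23 beside 0.91 for neuron markers, while liver markers lie at 8.13.

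Genes that work with these channels but lie outside the symbol rule were counted from lists. Beside these counts, 11.4% of all measured genes were lower and 10.9% higher by 1.5-fold or more. Of 10 sodium channel partners, 4 were lower by the 1.5-fold bound and 0 higher. The lowest was Fgf12, a cytosolic modulator of sodium channel inactivation, with 413 and 87 reads and a log2 ratio of −2.01 (−2.37 to −1.68), while Ank3, an anchor of sodium channels and the most abundant, had −0.09 (−0.17 to −0.02). Of 9 regulators of calcium current, 4 were lower and 0 higher. Rrad, a small GTPase that restrains L-type channels, had 193 and 96.4 CPM, 2.01-fold lower (1.92 to 2.10).

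Of 8 sodium pump and exchanger genes, 2 were lower and 0 higher. These were Fxyd1, phospholemman, with a log2 ratio of −1.28 (−1.38 to −1.19), and Slc8a1, the sodium-calcium exchanger, with 1439 and 902 CPM and a log2 ratio of −0.67 (−0.70 to −0.65). Of 5 measured potassium channel partners, 2 were lower, Abcc8 and the ankyrin gene Ank2 (−0.66, −0.77 to −0.55). Of 8 transcription factors of the conduction system, 2 were higher (Tbx3 and Isl1) and 1 was lower. The lower one was Irx3, a factor of the fast-conducting ventricular system, with 19.1 and 9.10 CPM and a log2 ratio of −1.07 (−1.29 to −0.85).

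The 57 channel genes under 1 CPM in mean had at most 35 reads in a library. Of these, 8 had 0 reads in both libraries (Kcnh4, Kcna10, Cacng2, Kcnj1, Kcnj9, Kcns2, Kcnk15 and Kcnk18), where 3 reads would be 0.0968 CPM in wild type and 0.113 CPM in H222P. A further 5 had 0 reads in wild type only and 4 in H222P only, with 1 to 6 reads in the other library. Cacna1s and Cacng1, channel subunits of skeletal muscle, had 26 and 12 reads and 2 and 3 reads, and the skeletal muscle regulator Myod1 had 6 and 24 reads. Of the 6 skeletal muscle markers 2 were measured, 1 higher by 1.5-fold or more and 1 within the bound. The list summed to 178 CPM in wild type and 187 CPM in H222P.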

How the data were processed

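RNA from E13.5 mouse hearts was sequenced in 2 libraries, 1 per genotype, grouped by genotype. The authors deposited whole-number counts for each gene, unnormalized, in 3 columns (both strands and each strand alone) with 4 summary entries. Per the submitters' processing notes the build was mm10 and the tools included DESeq, HTSeq and STAR; versions, roles and annotation release are not stated there. Multiply mapped reads form a summary entry of their own. The reverse-strand column held 19.3 and 20.5 times the reads of the other strand and was used. Summary entries were left out, which kept 82.8% and 82.0% of reads.

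Scaling used TMM factors (0.948 and 1.05) from edgeR 4.0.16 in R 4.3.3 over all genes. Log2 ratios used a prior count of 0.5, and 95% intervals are exact Clopper-Pearson intervals (scipy 1.17.1, Python 3.11.15). The intervals cover counting error only, because there is 1 library per genotype. Reads here carry no molecular identifiers and may be copies, which the intervals do not allow for. No count model was fitted, since 1 library per group leaves no residual degrees of freedom. Steps were tested on simulated data. Some genes that enter the counts are not reported here by name or drawn with a label.

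Positions and exon lengths come from GENCODE M21 (GRCm38, the assembly of mm10), which held 53238 of the entries under 1 symbol. Promoters come from RefSeq (GRCm38.p6), which matched 99 of the 136 members. Named genes were members with a mean of at least 1 CPM, and mostly the most abundant and extreme genes of the other lists. Members below 1 CPM were named to account for them. Some list genes, such as Klf1, Sox10, Tbx18 and Myod1 (mean under 1 CPM), were named outside this rule. Members, lists and alternatives were chosen with earlier results of these data known. Alternatives used total counts, size factors of DESeq2 1.42.0, TMM without blood and liver genes, other filters, a prior count of 5, the unstranded column, thinning, protein-coding genes and a 2-fold bound.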

Additional observations from a re-analysis of the deposited data

Results flagged for a closer look

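Reads on the strand opposite to the counted one, which no comparison above uses, exceeded the counted reads over both libraries together for 3 channel genes with more than 3 such reads. For Hcn3 there were 9 such reads in the wild-type and 516 in the H222P library. The annotated 3′ end of Hcn3 overlaps Pklr, the pyruvate kinase gene of liver and red cells, on the other strand (chromosome 3, 89136142 to 89146784). Pklr was counted at 30 reads in wild type and 1911 in H222P, with a log2 ratio of 6.20 (5.70 to 6.79). For Kcnj6, a neuronal inward rectifier with 1 and 2 counted reads, there were 402 and 163 opposite-strand reads, in a gene that overlaps the annotated antisense gene Gm41505 (734 and 291 reads, log2 ratio −1.11). For Kcnk4 there were 9 and 10 opposite-strand reads beside 0 and 2 counted ones.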

How the results depend on the processing

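No paired analysis was possible because each genotype had 1 library. DESeq2 size factors, TMM without globin, liver and red cell precursor genes, a prior count of 5, the unstranded column and thinning kept each of the 79 measured channel ratios inside its counting interval; total-count scaling, which moved the median of all genes to 0.15, moved 14 of them outside it. The median channel ratio became 0.0383 with total counts, 0.0534 without a filter and −0.32 when a mean of 5 CPM was required. With total counts 19 channel genes were lower and 19 higher, beside 7.74% and 15.2% of all genes, and 9 cardiac channels were lower. Without a filter 39 channel genes and 16 neuronal channels were higher by 1.5-fold or more, and with 5 CPM required 5 and 1. These higher channel genes made up 30.5% and 11.4% of the channel genes counted, against 24.0% and 7.11% of all genes. The lower channel genes numbered 35 and 17, against 21.5% and 9.25% of all genes. At a 2-fold bound 8 channel genes were higher, 8 lower, 3 cardiac channels lower and 1 neuronal channel higher. Set against the median of the cardiomyocyte markers, an alternative chosen after seeing the data, 1 cardiac channel was lower in place of 12. The different filters and bounds count other genes by construction. Depth limits genes under 1 CPM, and the absence of replicates limits all values.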
